A study of Arabidopsis thaliana with 12 samples.

Results

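The genes described here are the 45 Arabidopsis thaliana genes with at least 1 translated open reading frame (ORF) that the deposited tables place among non-coding genes and annotate as transposable element. They were taken by that annotation alone, from the root table, the shoot table or both, out of 18273 genes with any listed ORF. The study profiled roots and shoots of wild-type Col seedlings aged 4 days, grown in liquid medium with sucrose. Each tissue was represented by 3 samples for ribosome profiling and 3 for RNA-seq, with no mutant and no treatment. Ribosome profiling sequences the RNA fragments that ribosomes protect. Each tissue had 1 table with 1 whole-number count per ORF and no value per replicate, so no test between tissues was possible, no p-value is given, and intervals cover counting error only. Ribosome occupancy was not separated from transcript level, since values from the RNA-seq samples were not analysed here.

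Transposable elements are mobile DNA sequences. DNA transposons move through a transposase that binds their ends, and retrotransposons are copied through an RNA. Plants keep most of them silent by DNA methylation, histone modification and small RNAs. Some transposase genes have lost the mobile element around them and serve the host, a process called domestication or exaptation. The MUSTANG (MUG) genes are such a family, derived from the transposases of Mutator-like elements and known in Arabidopsis for roles in growth, flowering and reproduction. MUG5 to MUG8 form a branch whose proteins also carry a PB1 domain, a module for contacts between proteins.

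The marker genes that were matched for each tissue stood where the labels put them, while the shoot marker PSAD1 matched no single gene. The Casparian strip genes CASP1 and CASP2 had 19925 and 6827 counts in root against 380 and 52 in shoot, and the root hair factor RHD6 and the meristem factor PLT1 were listed in root only. RBCS1A, a Rubisco small subunit, had 29379 counts in root and 1065418 in shoot, and the stomatal factors SPCH and FAMA were listed in shoot only. The largest ORF count of each gene summed to 113381941 in root and 95481490 in shoot over all genes. The transposable element genes held 43382 of these counts in root (0.0383%) and 34826 in shoot (0.0365%).

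Of the 45 genes, 22 were listed in both tissues (48.9%, exact binomial 95% interval 33.7 to 64.2), 7 were in the root table alone (15.6%, 6.49 to 29.5), and 16 stood in shoot only (35.6%, 21.9 to 51.2). Over all 18273 genes the shares were 80.3%, 11.4% and 8.3%. A gene missing from a table was not called there, which does not show that it was untranslated, and no fold was computed for it. The genes listed in 1 tissue had low counts, up to 646, and genes with low counts were more often listed in 1 tissue in the whole tables as well. Among the 3739 genes of the series whose higher count was at most 646, 32.9% were in root only and 24.7% in shoot only. Among the 28 transposable element genes under the same limit, the root table alone held 7 (interval 10.7 to 44.9%) and the shoot table alone 16 (57.1%, 37.2 to 75.5). The limit is the largest count of the members listed in 1 tissue, so it keeps all of these and only 5 of the 22 listed in both. It thereby raises the 1-tissue shares of the members, which cannot be set against those of the series. For comparison, the 27 genes with a pseudogene ORF split into 8 in both, 14 in root only and 5 in shoot only.

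**Figure D1:**
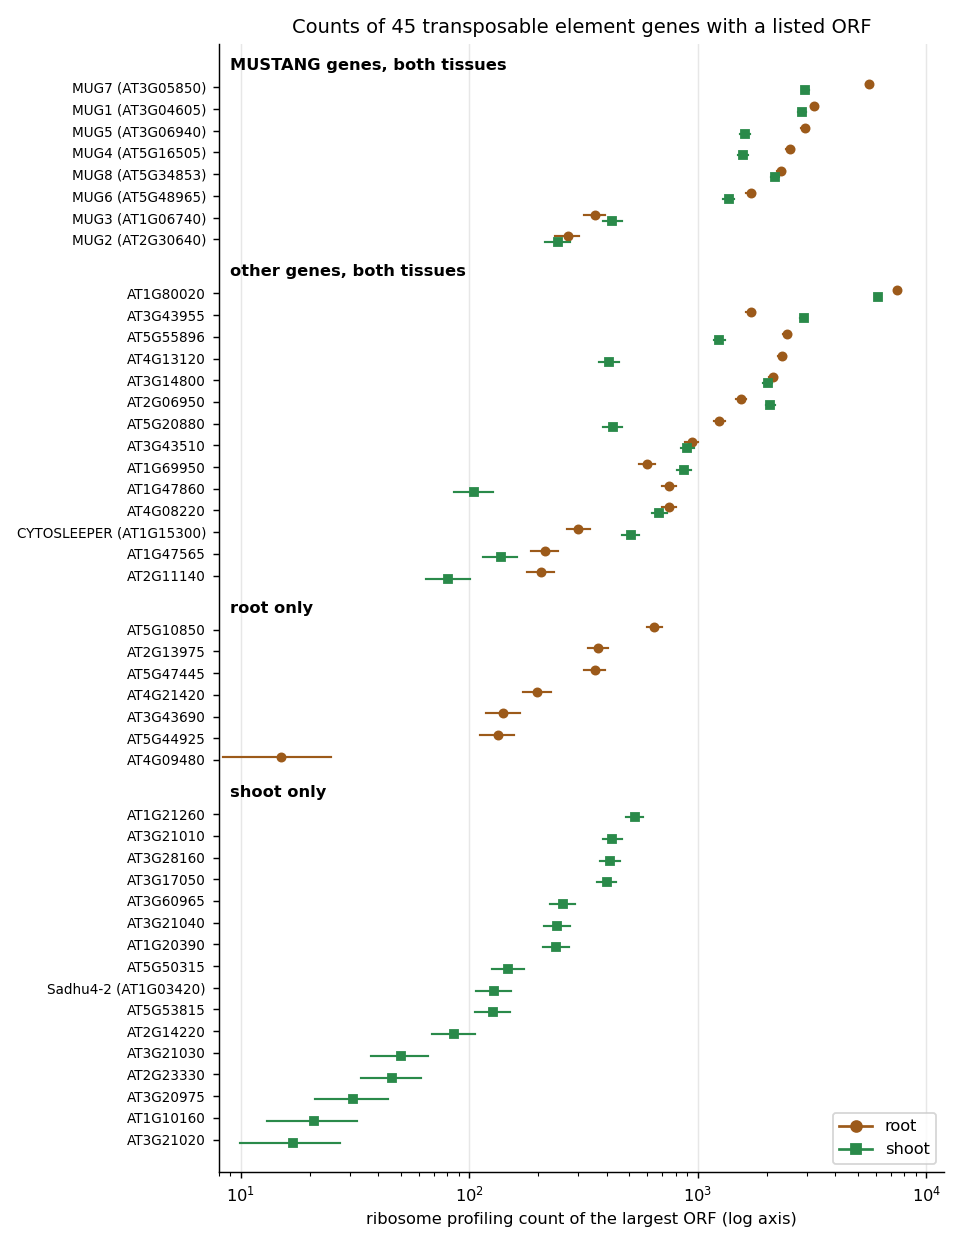
Count of the largest ORF of each of the 45 genes, on a log axis, in root (brown circles) and shoot (green squares), with exact Poisson 95% intervals of the counting error. The 8 MUSTANG genes and 14 others have a value in both tissues, and the genes of root only and shoot only lie at 646 counts or lower.

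All 8 MUSTANG genes were among the 22 genes listed in both tissues, each less than 2-fold apart between them. The binomial interval of that listing, 63.1 to 100%, includes the 80.3% of all genes that were listed in both tissues. Ratios are log2 of the shoot share over the root share of the summed counts, with a pseudocount of 0.5, given with exact intervals of the counting error. Of all genes in both tables, 14659 had 100 counts or more in the tissue with the larger count. Their median log2 ratio was -0.34, and 58.4% lay less than 2-fold apart. The 8 MUSTANG ratios ran from -0.67 to 0.50 with a median near 0, and 3 of them lay under the median over all genes. Their counts summed to 18920 in root, 43.6% of the counts of the transposable element genes there, and to 13191 in shoot, or 37.9%.

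In the branch with MUG5 to MUG8, MUG5 and MUG7 had a smaller share in shoot and MUG6 and MUG8 lay near equal shares. MUG7 (AT3G05850, chromosome 3 from 1743540 to 1745912, minus strand) had 5588 counts in root and 2949 in shoot over 767 codons in 2 exon blocks, a log2 ratio of -0.67 (-0.74 to -0.61). MUG5 (AT3G06940, chromosome 3 from 2189691 to 2192219, minus strand) had 2938 and 1613 counts over 749 codons, a log2 ratio of -0.62 (-0.71 to -0.53). Both were higher in root beyond counting error, MUG7 by 1.60-fold. MUG6 (AT5G48965, chromosome 5 from 19854211 to 19856568, plus strand) had 1702 counts in root and 1362 in shoot, a log2 ratio of -0.07 (-0.18 to 0.03). Its ORF had 716 codons in root and 757 in shoot. MUG8 (AT5G34853, chromosome 5 from 13103748 to 13107089, plus strand) had 2308 and 2171 counts in its ORF of 675 codons, a log2 ratio of 0.16 (0.07 to 0.24). Scaling on the median gene in place of the sum adds 0.34 to every ratio and flips the sign for MUG6, whose interval includes 0 without it.

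In the other branch, MUG1 and MUG4 had counts in the same range and MUG2 and MUG3 far lower ones. MUG1 (AT3G04605, chromosome 3 from 1247709 to 1249980, plus strand) had 3225 counts in root and 2854 in shoot over the same 757 codons, a log2 ratio of 0.07. MUG4 (AT5G16505, chromosome 5 from 5390458 to 5392249, plus strand) had 2536 and 1576 counts, a log2 ratio of -0.44 (-0.53 to -0.35). Its ORF had 593 codons in root and 597 in shoot. The difference for MUG4 was larger than counting error, and for MUG1 the interval included 0. MUG2 (AT2G30640, chromosome 2 from 13049512 to 13051709, minus strand) had 269 and 244 counts over 733 codons, a log2 ratio of 0.11 (-0.15 to 0.36). MUG3 (AT1G06740, chromosome 1 from 2071195 to 2073373, plus strand) had 354 and 422 counts, a log2 ratio of 0.50 (0.29 to 0.71), but its ORF was longer in shoot. Per codon, the range over MUG1 to MUG4 was 0.367 to 4.28 counts in root and 0.333 to 3.77 in shoot. Over MUG5 to MUG8 it was 2.38 to 7.29 in root and 1.80 to 3.84 in shoot, so the branches overlapped.

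The RefSeq table of assembly TAIR10.1, used for names only, gave a symbol other than the locus tag to 10 of the 45 genes. They were the 8 MUSTANG genes, CYTOSLEEPER and Sadhu4-2. It classed MUG3 and MUG7 as protein coding and the other 43 genes as pseudogenes. CYTOSLEEPER (AT1G15300, chromosome 1 from 5265831 to 5268226, minus strand) had 300 counts in root and 508 in shoot, a log2 ratio of 1.01 (0.80 to 1.22), over ORFs of 706 and 799 codons. Sadhu4-2 (AT1G03420, chromosome 1 from 847028 to 847541, plus strand) is named a non-coding retrotransposon in that table. An ORF of 171 codons was listed for it in shoot only, with 128 counts, or 0.749 per codon.

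The 14 other genes listed in both tissues ranged more widely than the MUSTANG genes, from -2.58 to 1.02 on the log2 scale, with a median of 0.04. Less than 2-fold apart were 8 of these 14 (57.1%), close to the 58.4% over all genes. The files and the reference table name no element family for the 13 of these 14 genes other than CYTOSLEEPER. AT1G80020 (chromosome 1 from 30100672 to 30103880, minus strand) had the largest count of all 45 genes in each tissue, 7439 in root and 6115 in shoot, over an identical ORF of 1070 codons. Its log2 ratio was -0.03 (-0.08 to 0.01), with a sign that flips under scaling on the median gene. Its nearest gene with a listed coding ORF was FRS8, a transposase-derived gene annotated as coding, 827 bases away.

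The lowest ratios were those of AT1G47860 and AT4G13120, the only members at least 4-fold apart between tissues as scaled here. AT1G47860 (chromosome 1 from 17627780 to 17630269, minus strand) had 749 counts in root and 105 in shoot over an identical ORF of 180 codons, a 5.98-fold larger share in root. AT4G13120 (chromosome 4 from 7644092 to 7646175, minus strand) had 2345 and 408 counts over 695 codons, a 4.84-fold larger share in root. Scaled on the median gene, only AT1G47860 passed 4-fold. At least 4-fold higher in shoot were 0 of the 22 genes, and 2 were at least 4-fold higher in root, against 9.53% and 9.89% over all genes. Of the 22, 16 lay less than 2-fold apart (72.7%).

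AT5G20880 was also higher in root, with 1239 counts there and 424 in shoot and a log2 ratio of -1.30. AT2G11140 had 205 and 81 counts (-1.09), and AT5G55896 had 2454 and 1242 (-0.73). AT1G47565 had 214 counts in root and 137 in shoot (-0.39, interval -0.72 to -0.08), and scaling on the median gene brings its interval across 0. On the shoot side, AT3G43955, with an ORF of 1372 codons on chromosome 3 from 15768976 to 15773090, had 1700 counts in root and 2907 in shoot, a log2 ratio of 1.02 (0.94 to 1.11). AT1G69950 had 597 and 870 counts (0.79), and AT2G06950, with an ORF of 1402 codons, had 1550 and 2079 (0.67). Genes thus lay on both sides of 0. The smallest ratios above 0 among these 14 genes were those of AT3G43510 (root count 942, shoot count 900) at 0.18 (0.05 to 0.32), AT3G14800 with 2128 and 2025 (0.18, 0.09 to 0.26) and AT4G08220 with 747 and 678 (0.11, -0.04 to 0.26). Only the last of these intervals includes 0. ORF lengths in root and shoot differed for AT5G20880 (272 and 252 codons) and AT2G11140 (375 and 404). They also differed for AT1G69950 (668 and 676) and AT3G43510 (232 and 300). For these genes the ratio compares ORFs of unlike length. Per codon, AT3G43510 had 4.06 counts in root and 3.00 in shoot.

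**Figure D2:**
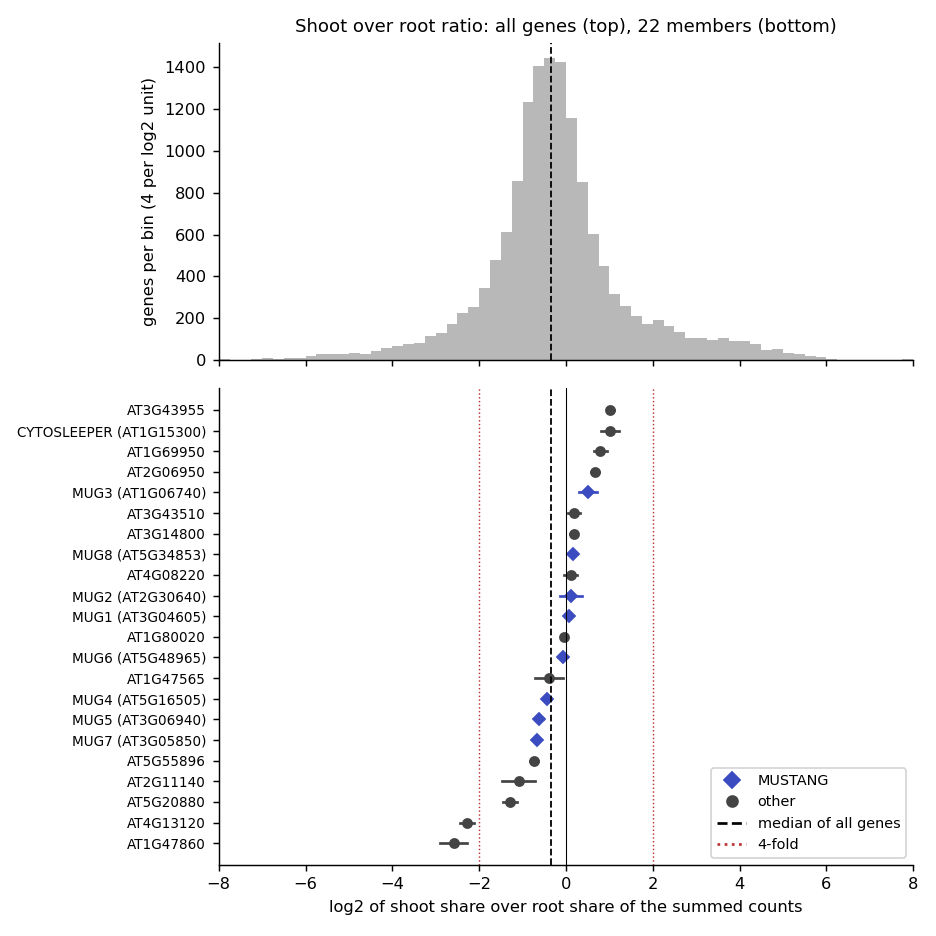
Top, log2 of the shoot share over the root share for the 14659 genes with 100 counts or more in 1 of the tissues, in bins of equal width, with values beyond 8 in either direction placed in the outer bins. Bottom, the same ratio for the 22 transposable element genes listed in both tissues, with counting intervals. The MUSTANG genes (diamonds) lie between -0.67 and 0.50, and 2 other genes lie beyond the 4-fold line on the root side.

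In root only, AT5G10850 had the largest count, 646 over 181 codons. AT2G13975 followed with 366, AT5G47445 with 354, AT4G21420 with 198, AT3G43690 with 141, AT5G44925 with 133 and AT4G09480 with 15. AT2G13975 (chromosome 2 from 5865382 to 5865491, minus strand) had an ORF of 37 codons and, at 9.89 counts per codon, the highest value per codon of any of the 45 genes in either tissue. AT5G44925 stood at the other end in root, with its 133 counts spread over 1449 codons, or 0.0918 per codon.

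In shoot only, AT1G21260 had the largest count, 529 over 235 codons. AT3G21010 had 423 counts, AT3G28160 413, AT3G17050 399, AT3G60965 256, AT3G21040 242, AT1G20390 240, AT5G50315 148 and AT5G53815 127. Their ORFs were called over 137 to 680 codons. The remaining 6 beside Sadhu4-2 had under 100 counts, namely AT2G14220 with 86, AT3G21030 with 50, AT2G23330 with 46, AT3G20975 with 31, AT1G10160 with 21 and AT3G21020 with 17. AT2G23330 had the longest ORF of all 45 genes, 1496 codons, and 0.0307 counts per codon. AT1G10160, with 854 codons, had 0.0246 per codon, the lowest of the 45. When an ORF count of at least 100 was required, the number in shoot only went from 16 to 10 and that in root only stayed at 7, AT2G11140 having moved to root only and AT4G09480 having dropped out.

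The 5 shoot-only genes AT3G20975, AT3G21010, AT3G21020, AT3G21030 and AT3G21040 lay within 19874 bases of chromosome 3, from 7354490 to 7374363, all on the plus strand. They formed the only group of members less than 50000 bases apart. Their shoot counts were 31, 423, 17, 50 and 242, in the order of the chromosome. The nearest listed genes on either side were found in both tissues. NFU4, which encodes an iron-sulphur scaffold protein of mitochondria, had 1272 counts in root and 1315 in shoot, and PSBTN, for a small subunit of photosystem II, had 1077 and 16209. Between the first and the last of the 5, the reference table has another 7 loci, 0 of them listed in either tissue. Neighbouring elements can be near-identical copies that share reads, and how reads with several matches were treated is not given in the sources used here, so the 5 counts may not be independent. Without the 5 genes, 11 of the remaining 40 stood in shoot only.

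**Figure D3:**
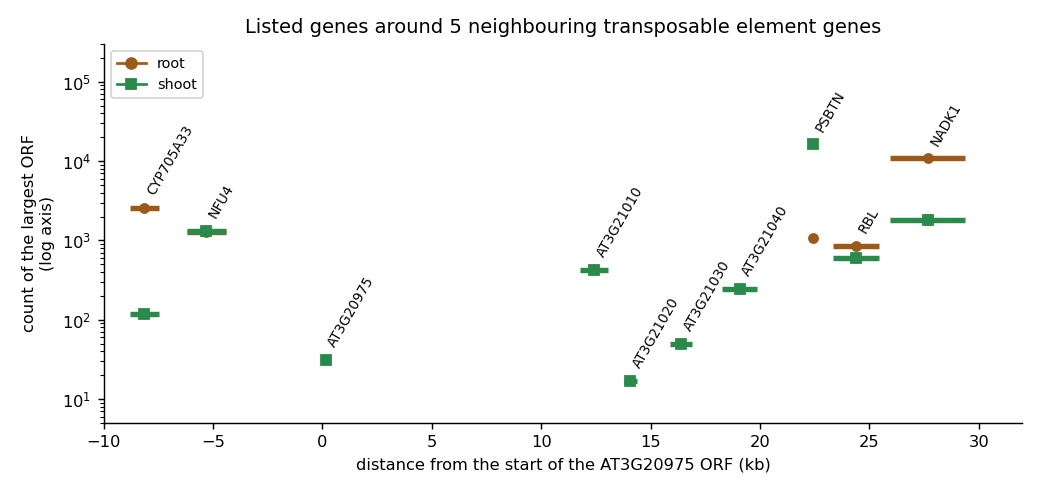
Count of the largest ORF, on a log axis, of the listed genes around the 5 neighbouring transposable element genes on chromosome 3, against distance from the start of the first ORF in kb. Each line spans the listed ORFs of a gene, brown with a circle for root and green with a square for shoot. The 5 members from AT3G20975 to AT3G21040 have shoot values only, from 17 to 423, and the genes on either side have both.

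Counts per codon allow the genes to be compared with coding genes. The median of the 29 genes listed in root was 2.37 counts per codon, against 4.81 for 16678 coding genes, and that of the 38 genes in shoot was 1.01, against 3.67 for 16123 coding genes. For genes whose largest count was in a pseudogene ORF, the medians were 1.76 in root and 1.33 in shoot. For those with it in an ncRNA ORF they were 9.63 and 8.50. Only 3 members in each tissue stood above the coding median. In root these were AT2G13975, MUG7 at 7.29 per codon and AT1G80020 at 6.95. In shoot they were AT1G80020 at 5.71, MUG7 at 3.84 and MUG1 at 3.77. Among coding genes of the same tissue, MUG7 lay at percentile 61.5 in root and 51.2 in shoot, and AT1G80020 at 60.2 and 61.4. The median was 3.67 in root and 2.40 in shoot for the MUSTANG genes, and 2.35 and 1.38 for the other genes listed in both tissues. For the genes listed in 1 tissue it was 0.985 in root and 0.432 in shoot. These 3 groups overlapped in both tissues.

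**Figure D4:**
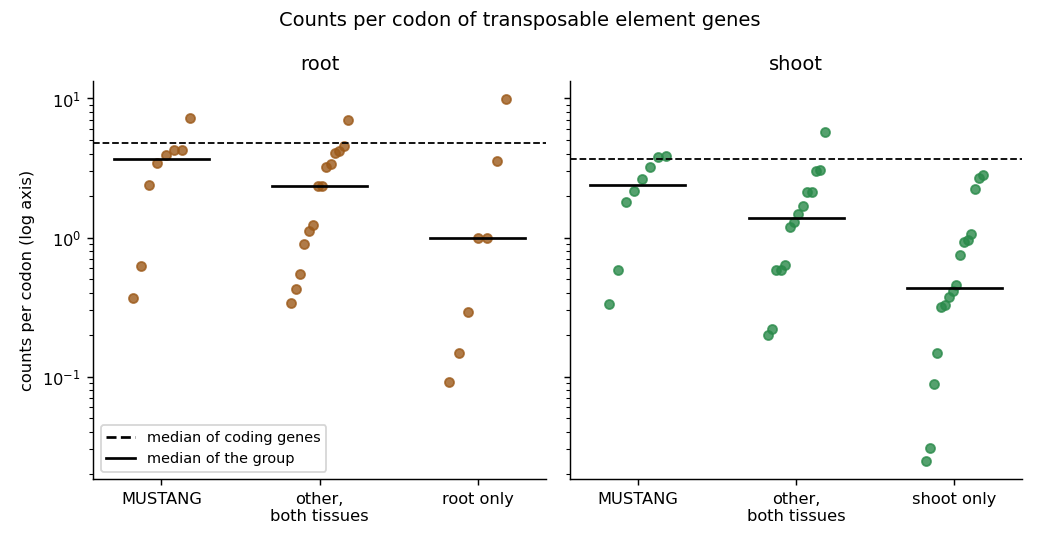
Counts per codon, on a log axis, of the ORF with the largest count of each gene in root (left) and shoot (right), grouped into MUSTANG genes, other genes listed in both tissues and genes of that tissue only. Points are genes, solid lines group medians and dashed lines the median of coding genes, which 3 members exceed in each tissue.

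The ORFs were long and mostly unspliced. The root table held 31 transposable element ORFs of 37 to 1449 codons with a median of 628, and the shoot table held 40 of 79 to 1496 codons with a median of 590. Coding ORFs had a median of 374 in both, and pseudogene ORFs medians of 148 and 183. With 1 ORF per gene, that with the largest count, the medians of the transposable element genes were 661 and 612.5 codons. In root, 28 of the 31 ORFs had a single exon block (90.3%, 74.2 to 98.0). In shoot, 37 of the 40 did (92.5%, 79.6 to 98.4). The share was 15.3% in root and 14.5% in shoot for coding ORFs, but 96.3% and 92.9% for the 27 and 14 pseudogene ORFs. The exceptions were the ORFs of MUG5, MUG6 and MUG7, with 2 blocks each in both tissues. The ORF began at the first base of the annotated transcript in 4 root and 8 shoot ORFs (12.9% and 20.0%), against 5.75% and 4.67% of coding ORFs and 25.9% and 28.6% of pseudogene ORFs. Neither trait was thus particular to the transposable element ORFs. None of the transposable element ORFs shared bases with a listed ORF of another gene on either strand.

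Coordinates were identical in both tissues for 14 ORFs. This is 45.2% of those in the root table (27.3 to 64.0) and 35.0% of those in the shoot table (20.6 to 51.7), against 69.1% and 71.1% for coding ORFs. Pseudogene ORFs had 14.8% and 28.6%, and ORFs of ncRNA genes 40.9% and 69.2%. By stop position alone, 23 transposable element ORFs were found in both tissues. Of the 9 with another start, 8 were longer in shoot (34.8% of the 23) and 1 was longer in root (4.35%). Among 15948 coding stop positions found in both tissues, 9.94% had the longer ORF in shoot and 11.8% in root. When only stops with another start were counted, 88.9% of the transposable element ORFs (51.8 to 99.7) were longer in shoot. For the 3463 coding ORFs of that kind the share was 45.8%.

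The longest extension was in MUG3, whose ORF had 567 codons in root and 726 in shoot, a difference of 159 codons. CYTOSLEEPER gained 93 codons in shoot, AT3G43510 68, the upstream ORF of MUG8 52, MUG6 41, AT2G11140 29, AT1G69950 8 and MUG4 4. AT5G20880 was 20 codons longer in root. Of the 8 ORFs that were longer in shoot, 4 had the larger count in shoot and 4 in root, with counts not scaled for the unlike totals of the tissues. Whether the length of the call depends on the count was not tested. The start depends on the ORF caller, which is not given in the sources used here, and whether the starts differ between samples was not tested.

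**Figure D5:**
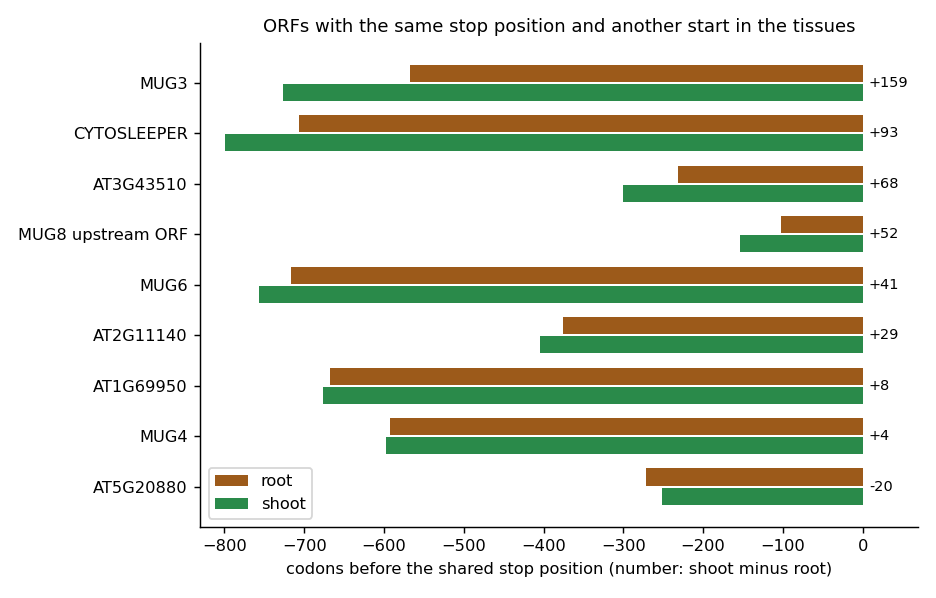
Length in codons, counted back from the shared stop position, of the 9 transposable element ORFs with the same stop and another start, in root (brown) and shoot (green). The number beside each pair is the length in shoot minus that in root, and it is above 0 for 8 ORFs, up to 159 for MUG3, and -20 for AT5G20880.

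The members lay on all 5 nuclear chromosomes, with 10 on chromosome 1, 6 on chromosome 2, 15 on chromosome 3, 4 on chromosome 4 and 10 on chromosome 5. In bins of 1 Mb, the median number of listed coding genes around a member was 176, against 191 around a coding gene. Bins with fewer than 124 listed coding genes held 12 of the 45 members (26.7%), against 9.91% of coding genes. The cutoff of 124 is the 10th percentile around coding genes, each left out of its own bin, so the share of coding genes was set by that choice. Of these 12, AT1G80020 lay in the incomplete last bin of its chromosome. AT3G43510, AT3G43690 and AT3G43955 shared a single bin of 43 listed coding genes, so their values are not separate. The fewest were 6, around AT2G11140, followed by 28 around AT2G13975 and 33 around AT2G06950. Of the MUSTANG genes, 7 lay in bins of 181 to 237 coding genes, and MUG8 in a bin of 40. The nearest listed coding gene was a median of 1389 bases away from a member and 885 bases from a coding gene, the latter taken over every 10th coding gene.

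Genes of related origin that are annotated as coding were also listed in both tissues. The list held FHY3, FRS genes and DAYSLEEPER, all derived from transposases, with 14 genes outside the 45 described here. All 14 were listed in root and in shoot, 0 were 4-fold apart, and the median log2 ratio was 0.02, from -0.88 to 0.51. Most genes of the series, 80.3%, were likewise found in both tables. Among the 14659 genes compared above, 9.53% passed the 4-fold line on the shoot side and 9.89% on the root side. Whether the 14 genes differ from all genes in either respect was not tested. FHY3, a transcription factor of light signalling, had 6883 counts in root and 5174 in shoot (-0.16), FRS1 961 and 438 (-0.88) and FRS2 490 and 419 (0.02). A log2 ratio under 0 was found for 6 of the 14, and 4 of them were also under the median over all genes. The sign for FHY3 flips under scaling on the median gene.

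Of 29 genes that act in silencing transposable elements, 28 were listed in both tissues and ATXR5, a histone methyltransferase, in shoot only with 342 counts. The share listed in both tissues was 80.3% over all genes. The median log2 ratio of the 28 was 0.06, with 12 of them under 0 and 7 under the median over all genes. The chromatin remodeller DDM1 had 2998 counts in root and 3004 in shoot (0.25), the maintenance methyltransferase MET1 7528 and 10204 (0.69) and the methyltransferase CMT2 1697 and 3066 (1.10). AGO6, a small RNA binding protein of the RNA-directed DNA methylation pathway, was the 1 gene at least 4-fold apart, with 122 and 417 counts (2.02). HDA6, a histone deacetylase, had the next largest difference, in the other direction, with 5476 and 1864 counts (-1.31). AGO6 and HDA6 are named because of their values. Whether any of these values bears on the listing of transposable element ORFs was not tested.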

How the data were processed

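The tables used hold translated ORFs, 1 table for root and 1 for shoot. The submitters' processing notes name the genome build TAIR10 and the tools Bowtie2 and STAR 2.5.1b, without their roles. The sources used here do not give the ORF caller or how the 3 samples were pooled. Each deposited count is a whole number of at least 6 for 1 ORF, and with no header the unit, unscaled counts, was read from the values.

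Exon blocks with the same name were joined. Coding lengths are differences of the transcript positions in the ORF name, and they differed by 1 base from the block sums for every ORF (21768 in root, 21128 in shoot), so ORF ends may be off by 1 base. Starts are 1-based. Names came from RefSeq locus tags (TAIR10.1), which matched all 45 members. Gene values are the largest ORF count of the gene. Intervals are exact Poisson, exact binomial (Clopper-Pearson) or, for ratios, exact conditional on the summed count, all at 95%. Counts without molecular identifiers are not independent molecules. The list of transposase-derived genes had 5 entries that matched no single gene.

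The members, lists and alternatives were chosen with earlier results of these data known. The rule for named genes took members listed in both tissues, the 10 largest counts and 5 longest ORFs per tissue, the 5 highest and 5 lowest ratios, members with a symbol, and up to 3 list genes per class. The other 20 members are named to account for every member. Ratio and matching steps were tested on simulated data. The tools were Python 3.11.15 with matplotlib 3.10.9, numpy 2.4.6, scipy 1.17.1 and pandas 2.3.3.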

Additional observations from a re-analysis of the deposited data

How the results depend on the processing

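No paired analysis was possible because the tables carry no value per replicate, and leaving out replicates was not possible for the same reason. Requiring an ORF count of at least 100 left 10 genes in shoot only, in place of 16. Counting ORFs in place of genes gave 14 shared, 17 for root alone and 26 for shoot alone, in place of 22, 7 and 16. Among genes with a higher count of at most 646, a limit chosen after seeing the data, 5 in place of 22 were in both, since the limit removes the others. Matching by stop position or by reciprocal overlap of 50% gave 23 shared ORFs in each case, in place of 14. Scaling on the median ratio moved the median log2 ratio of the 22 genes from 0.02 to 0.36, left 1 gene in place of 2 at least 4-fold higher in root, and put 13 in place of 11 above 0. With the longest identical ORF, 7 of the 14 genes that have one lay above 0. The median counts per codon became 2.80 in root and 1.74 in shoot when only genes listed in both tissues were used, in place of 2.37 and 1.01. The cause of the remaining shifts was not tested. Taking the longest ORF of each gene in place of that with the largest count left the medians per gene at 661 and 612.5 codons and the single-block ORFs at 26 of 29 genes in root and 35 of 38 in shoot. The alternatives for bin size, ORF starts and a minimum of 100 codons kept their counts within 1.5-fold, and a pseudocount of 5 left the median ratio at 0.02.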

Other observations

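Of the 45 genes, 3 had a pair of separate ORFs on the same transcript in at least 1 tissue. MUG8 had an upstream ORF and a main ORF of 675 codons in both tissues, 854 bases apart and in different reading frames. The upstream ORF had 102 codons and 47 counts in root and 154 codons and 135 counts in shoot, or 0.461 and 0.877 counts per codon, against 3.42 and 3.22 in the main ORF. AT1G47860 had a first ORF of 180 codons with 749 counts and a second of 65 codons with 345 counts in root, at 4.16 and 5.31 per codon, and the first alone in shoot. AT3G43510 had the pair in shoot, with 79 codons and 74 counts in the first and 300 codons and 900 counts in the second, at 0.937 and 3.00 per codon. In both of these genes the ORFs of the pair lay in different frames of the annotated transcript.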
